A study of Mus musculus with 9 samples.

Results

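A set of 115 genes in mouse microglia had mean levels within 0.15 of each other on the log2 scale at 6 and 15 months of age and a higher level at 23 months. Microglia are the resident macrophages of the brain, and RNA was sequenced from microglia that had been isolated by flow cytometry. The animals were wild-type, female and of strain C57BL/6, with no treatment named in the labels. Young mice were 6 months old, middle-aged mice 15 months and old mice 23 months, and each age had 3 libraries, each made from the pooled RNA of 3 separate mice. The spread between libraries is therefore a spread between pools of animals, and 1 age is represented by 9 mice. How the sort was gated is not stated in the labels used here. In such sorted but bulk samples, a change in RNA per cell and a change in the share of cells that carry a transcript cannot be told apart.

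The genes were chosen from the deposited log2-scale table of 22036 genes by their own values, so those values are a description and carry no test. A gene was kept when its mean over the 9 libraries was at least 7, its middle-aged mean lay within 0.15 of its young mean, its old mean was at least 0.3 above its middle-aged mean, and its lowest old library exceeded every young and middle-aged library. Of the 22036 genes, 10611 had a mean of at least 7, 6423 of these also had the flat first step, 225 of those had the higher old mean, and 115 of the 225 (51.1%) had no overlap. The 115 were 1.08% of the 10611 genes with a mean of at least 7. Among those 10611 genes, 4.51% had all 3 old libraries above the other 6, whatever the first step. The opposite pattern, flat to 15 months and lower in every old library by the same limits, was met by 82 genes.

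Microglia keep the brain tissue clear of debris and respond to damage, and with age they are known to take on a primed state with more antigen presentation, lysosomal and interferon-related transcripts. MHC class I molecules carry peptides from inside the cell to its surface, and their genes answer to interferons through short response elements in their promoters. Lysosomes digest what microglia take up, with cathepsins as their main proteases. Insulin-like growth factor 1 acts through the AKT and mTOR kinases, and mTOR signalling in ageing microglia is the subject named in the study's title.

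The promoters of 5 of the 115 genes are printed because they carry elements tied to these pathways. They come from RefSeq windows on GRCm38.p6, which run from 250 bases before to 50 after each gene's start, and positions are counted from that start. In H2-D1, which encodes a classical MHC class I heavy chain, bases -171 to -142 lie at chr17:35262923-35262952 on the plus strand, inside a longer first exon of GENCODE M21, and the capitals mark an NF-kB match and the interferon consensus sequence found upstream of MHC class I genes. In Stat2, encoding a transcription factor of type I interferon signalling, the 250 bases lie at chr10:128270248-128270497 on the plus strand. In Oas1g, of the antiviral oligoadenylate synthetase family, they lie at chr5:120887614-120887863 on the minus strand. In both genes the capitals mark the core of the interferon-stimulated response element, and in Oas1g 2 overlapping matches end 4 bases before the start. In Ctsd, encoding the lysosomal protease cathepsin D, bases -110 to -81 lie at chr7:142387908-142387937 on the minus strand, again inside a longer GENCODE first exon. In Dpp7, encoding a lysosomal dipeptidyl peptidase, bases -250 to -28 lie at chr2:25356360-25356582 on the minus strand. Capitals in the last 2 mark the core of the CLEAR element, a motif known from genes of the lysosome.
H2-D1: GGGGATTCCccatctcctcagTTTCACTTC
Stat2: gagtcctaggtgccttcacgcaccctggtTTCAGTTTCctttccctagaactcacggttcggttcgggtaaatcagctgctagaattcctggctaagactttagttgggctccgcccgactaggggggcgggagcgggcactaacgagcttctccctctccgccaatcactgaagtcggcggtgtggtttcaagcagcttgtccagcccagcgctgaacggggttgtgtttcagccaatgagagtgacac
Oas1g: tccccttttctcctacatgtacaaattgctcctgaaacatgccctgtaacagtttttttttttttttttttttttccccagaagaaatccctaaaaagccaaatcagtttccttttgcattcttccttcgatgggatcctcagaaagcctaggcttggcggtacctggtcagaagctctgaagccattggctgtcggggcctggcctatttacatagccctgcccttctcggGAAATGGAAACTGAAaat
Ctsd: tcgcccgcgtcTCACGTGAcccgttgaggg
Dpp7: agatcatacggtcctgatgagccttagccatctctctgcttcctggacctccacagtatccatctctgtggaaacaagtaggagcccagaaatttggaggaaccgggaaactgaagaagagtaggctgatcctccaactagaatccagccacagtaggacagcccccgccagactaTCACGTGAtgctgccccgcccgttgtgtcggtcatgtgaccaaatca

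The files hold no read totals. Depth is therefore unknown, and values are compared on the log2 scale as deposited. Of 10 microglia markers, 9 were in the table, and all 9 stood between 14.32 (C1qa) and 19.04 (Csf1r) in every library, above 97.5% or more of the genes with a mean of at least 7. Of 13 neuron markers, 2 had a mean of at least 7, and Rbfox3, Nefm, Nrgn, Slc17a7, Gad2 and Meg3 were below 3.32, log2 of 10, in all 9 libraries. Of 14 oligodendrocyte lineage markers, 5 had a mean of at least 7 and Olig1, Olig2, Sox10 and Opalin were below 3.32. The summed level of the 14, back on the linear scale, ran from 6680 to 7359 in young, 6309 to 9276 in middle-aged and 7594 to 10503 in old libraries, and its part in the results was not tested. The summed level of neutrophil markers ran from 326919 to 563715 in young, 492672 to 1064972 in middle-aged and 270820 to 549852 in old libraries. Of the 16 with a mean of at least 7, 0 are among the 115 genes, where 1.08% of all such genes are, so this absence says little. The part of neutrophils in the results was not tested. Old replicate 3 stood apart, being the highest of the 3 old libraries in 40.9% of the 10611 genes and the lowest in 40.5%, so results that rest on it are given with and without it.

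The 115 genes had a median level of 10.76, near the 10.49 of all genes with a mean of at least 7. Their old minus middle-aged difference had a median of 0.42 on the log2 scale, 1.34-fold, and ran from 0.30 to 1.52, where all 10611 genes had a median of -0.003. In 27 genes it was at least 0.5 and in 2, H2-D1 and Fth1, at least 1. Their middle-aged minus young difference, held near 0 by the choice, had a median of -0.002, and 56 of the 115 were above 0. Their median SD over the 3 libraries of an age was 0.093 in young, 0.139 in middle-aged and 0.140 in old libraries. Over all 10611 genes it was 0.095, 0.133 and 0.159. The requirement of no overlap acts against genes of wide spread, so these spreads are also shaped by the choice.

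**Figure D1:**
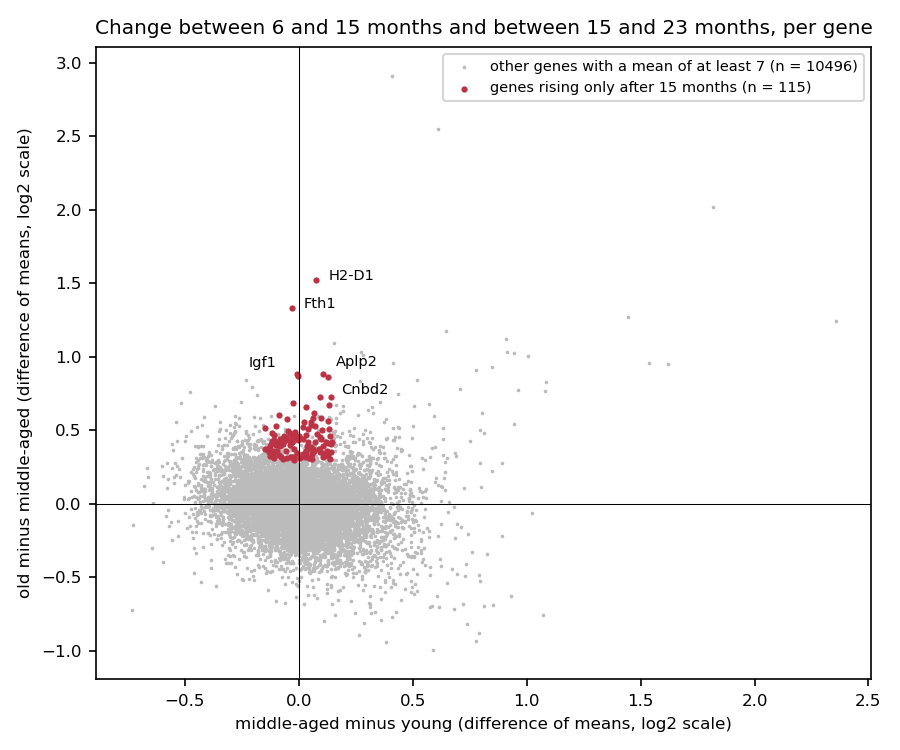
Each point is a gene with a mean of at least 7, with the middle-aged minus young difference on the horizontal axis and the old minus middle-aged difference on the vertical axis, both differences of means of 3 libraries on the log2 scale. The 115 chosen genes (red) fill a strip within 0.15 of 0 horizontally and from 0.30 to 1.52 vertically, with H2-D1 and Fth1 above the rest.

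Genes just inside and just outside the limits differed little. Grina and Gm5182 entered with an old minus middle-aged difference of 0.3004 and 0.3019, while Mospd3 and Pold4 were left out at 0.2998 and 0.2988. Without old replicate 3, Pold4 had 0.18. Glce and Clptm1 entered with a middle-aged minus young difference of -0.148 and -0.147, while Tppp3 at 0.151 and Mrto4 at -0.1525 were left out. The old minus middle-aged difference of Mrto4 was 0.32, and 0.20 without old replicate 3. Cd2 and Saa3 entered with means of 7.02 and 7.07, while Actr3b and Gzmb were left out at 6.96 and 6.95. Both Cd2 and Saa3 had young and middle-aged means below 7 and met this limit only through their old libraries. In all, 156 genes failed on the size of the second step alone, 132 on the first step alone, 110 on the overlap alone and 16 on the mean alone, so the set is a window in a continuous range.

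H2-D1, which encodes a classical heavy chain, ranked first by the size of its second step and lies on chromosome 17 at 35262730 to 35267499 on the plus strand (GENCODE M21, GRCm38). It was at 14.47, 14.85 and 14.45 in young replicates 1, 2 and 3, at 14.30, 14.44 and 15.25 in middle-aged ones and at 16.05, 16.09 and 16.42 in old ones. The old libraries stood 0.81 above the highest other library, and middle-aged replicate 3 stood above the other middle-aged ones. The group means were 14.59 ± 0.23, 14.66 ± 0.51 and 16.19 ± 0.20 (SD, n = 3 each), a 2.88-fold higher mean in old than in middle-aged libraries. Nlrc5, encoding the transactivator of MHC class I genes, was at 10.64, 10.33 and 10.65 in young, 10.57, 10.47 and 10.81 in middle-aged and 10.86, 11.26 and 11.30 in old libraries. Its old mean was 1.44-fold the middle-aged one, although old replicate 1 lay only 0.05 above middle-aged replicate 3. Pdia3, encoding a disulfide isomerase of the peptide-loading complex, was 0.32 higher in old than in middle-aged libraries. These 3 were members among 18 class I genes with a mean of at least 7. Nlrc5 and Pdia3 ranked lower in the set, at 22 and 103 of 115. Of the 15 other class I genes tested, 0 were called higher in old against middle-aged libraries, 2 in old against young and 1 in middle-aged against young, with 0 lower (limma moderated test, Benjamini-Hochberg adjusted p under 0.05). Over all 14955 genes tested, 0.16%, 1.7% and 0.114% were called higher in these comparisons.

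The related class I gene H2-K1 did not share the pattern. Its transcript is 91.3% identical to that of H2-D1 over 1050 aligned bases, so how reads were divided between them is uncertain. H2-K1 was at 15.43, 15.82 and 15.91 in young, 15.74, 16.13 and 15.82 in middle-aged and 15.77, 15.80 and 15.99 in old libraries. The 3 ages overlapped, with an old minus middle-aged difference of -0.04 where H2-D1 had 1.52. H2-Q6 and H2-Q4, other relatives with 90.6% and 91.6% identity, had differences of 0.09 and 0.003.

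**Figure D2:**
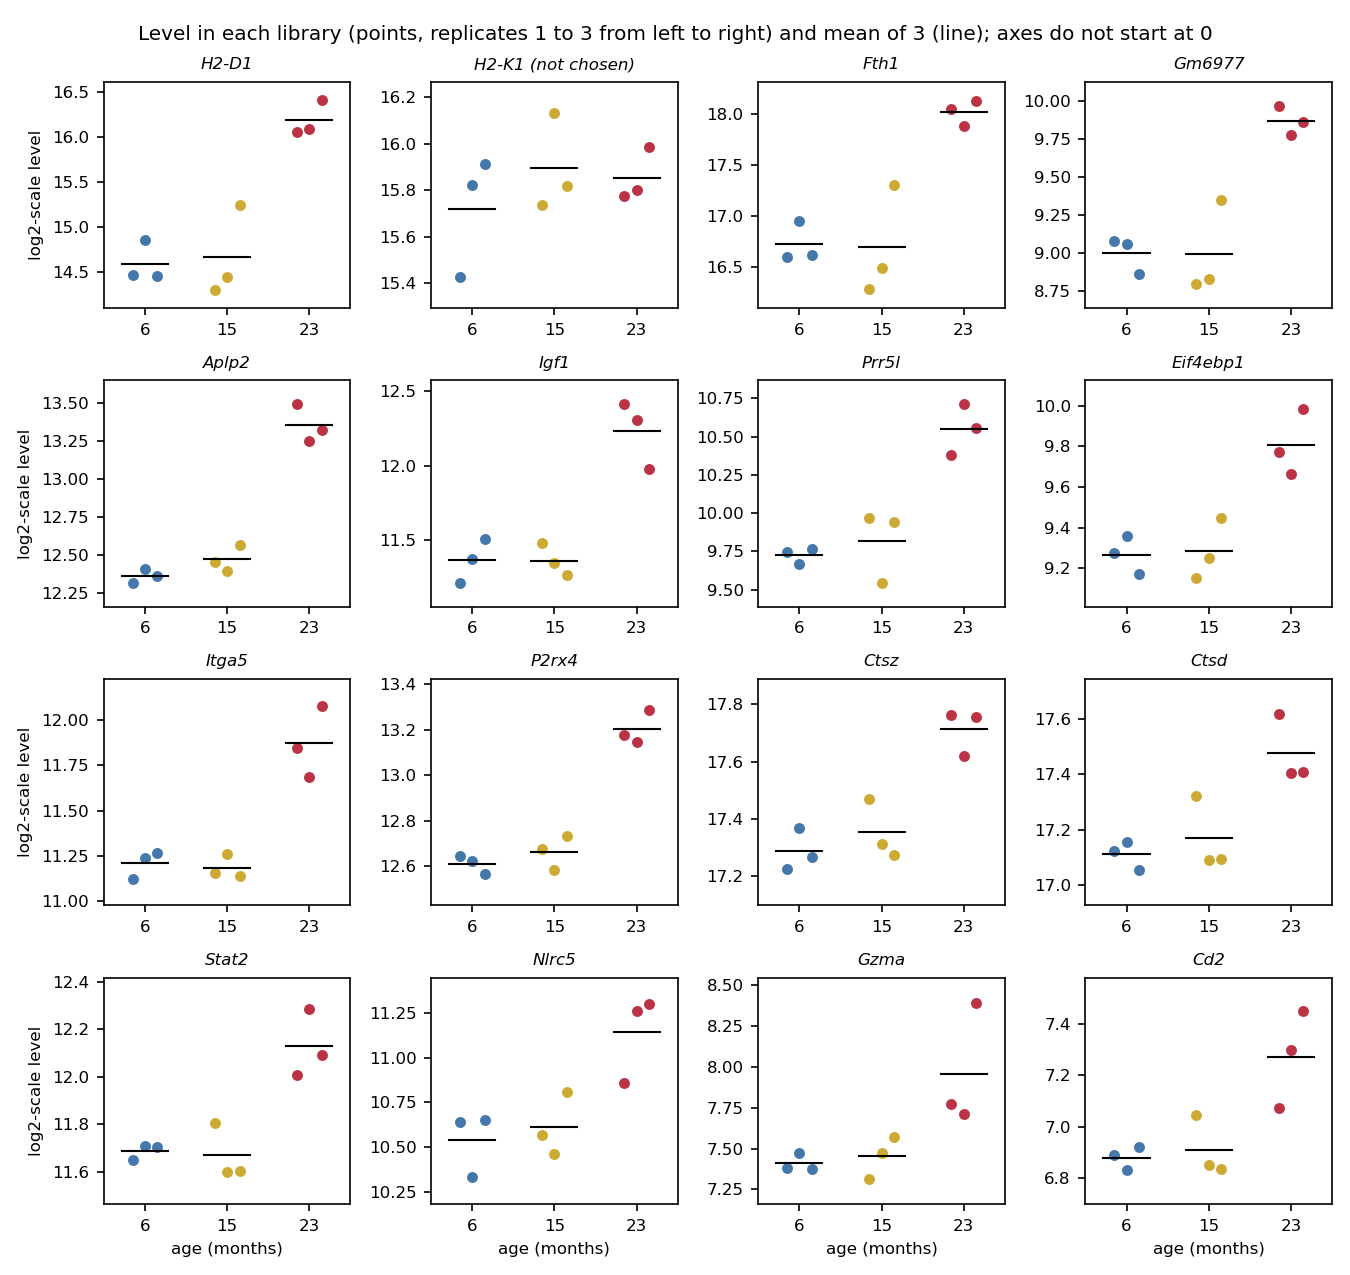
Log2-scale level in each library (points, replicates 1 to 3 from left to right) at 6, 15 and 23 months, with the mean of 3 libraries (lines), for 15 of the chosen genes and for H2-K1, which is not one of them; each panel has its own axis, which does not start at 0. In the 15 genes every old point lies above every younger one, in H2-K1 the ages overlap, and in H2-D1, Fth1 and Gm6977 middle-aged replicate 3 lies between the other middle-aged libraries and the old ones.

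Interferon genes were represented by Stat2, Oas1g and Parp9, 3 of 48 genes on the type I interferon list. Stat2 was at 11.65, 11.71 and 11.70 in young, 11.81, 11.60 and 11.60 in middle-aged and 12.01, 12.28 and 12.09 in old libraries. The young and middle-aged libraries overlapped and the old mean was 1.37-fold the middle-aged one. Oas1g, whose promoter is printed above, was at 8.72, 8.69 and 8.80, then 8.93, 8.68 and 8.71, then 8.96, 9.41 and 9.13. Old replicate 1 of Oas1g lay 0.03 above middle-aged replicate 1. Its transcript is 97.6% identical to that of Oas1a over 1861 bases, and Oas1a differed from it in the first step, with 0.33 between young and middle-aged libraries and 0.39 between middle-aged and old ones. Parp9, of the ADP-ribosyltransferase family, was 0.34 higher in old than in middle-aged libraries. The 48 interferon genes had median steps of 0.21 to 15 months and 0.14 after it. Of the 45 that are no members, 9 were called higher in old against young libraries, against 1.7% of all genes, and 0 in the other 2 comparisons (limma moderated test, adjusted p under 0.05; 1522 and 1698 of all genes had an unadjusted p under 0.05 there).

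Other genes of immune signalling in the set are on few of the lists, and they were grouped after their values were seen. Nlrc3, an NLR family gene known to dampen innate signalling, was at 7.63, 7.42 and 7.35 in young, 7.48, 7.40 and 7.27 in middle-aged and 8.06, 7.83 and 8.08 in old libraries, 0.61 higher in old than in middle-aged ones. Irf8, a transcription factor that microglia need to develop, was 0.31 higher, from 12.54, 12.37 and 12.66 to 12.87, 12.73 and 12.90. Tnip1, encoding a binding partner of the NF-kB inhibitor A20, was 0.32 higher, Sbno2, a co-regulator in the interleukin-10 response, 0.42, and Scimp, a transmembrane adaptor of immune cells, 0.39, or 0.18 without old replicate 3. The cytokine receptor genes Il2ra, Il12rb2 and Il11ra1 were 0.39, 0.43 and 0.32 higher, and Il11ra1 was 0.17 higher without middle-aged replicate 3.

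Iron handling contributed Fth1 and Slc11a1, 2 of 17 genes. Fth1, the ferritin heavy chain that stores iron, lies on chromosome 19 at 9980598 to 9985098 and was at 16.60, 16.95 and 16.61 in young, 16.28, 16.48 and 17.30 in middle-aged and 18.05, 17.88 and 18.13 in old libraries. The 3 old libraries were the highest, and middle-aged replicate 3 again stood above the other 2. The means were 16.72 ± 0.20, 16.69 ± 0.54 and 18.02 ± 0.13 (SD, n = 3 each), a 2.52-fold step. Slc11a1, a metal ion transporter of phagosomes, was at 14.59, 14.83 and 14.65, then 14.83, 14.61 and 14.54, then 15.12, 15.09 and 15.04. Its 3 old libraries were close to each other, with an SD of 0.036. Of the 15 other iron genes 0 were called in either direction in any of the 3 comparisons (limma moderated test, adjusted p under 0.05). Over all 14955 genes tested, 26 were called in old against middle-aged, 299 in old against young and 17 in middle-aged against young libraries. A count of 0 among 15 genes therefore says little about the list.

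The processed pseudogene Gm6977 followed Fth1. Its 512-base transcript is 91.2% identical to that of Fth1 over 411 bases. It was at 9.08, 9.06 and 8.86 in young, 8.79, 8.83 and 9.35 in middle-aged and 9.97, 9.78 and 9.86 in old libraries. Both genes had middle-aged replicate 3 as their highest middle-aged library and no overlap of old libraries with the rest, so which of the pair gave the reads is uncertain. In all, 14 of the 115 genes had a gene elsewhere with at least 90% identity over at least 300 bases. Rpl13-ps6 is 99.5% identical to Gm12918, which had steps of 0.19 and 0.63, and Gm5182 is 99.2% identical over 6118 bases to Acaca, a fatty acid synthesis gene, which had steps of 0.19 and 0.67. Both partners missed the set by the first step. Gm6977, Rpl13-ps6 and Gm5182 were the 3 processed pseudogenes beside 110 protein-coding genes, the long noncoding RNA gene Gm13391 and the immunoglobulin constant gene Ighg2b. These gene models fall outside the rule for named genes or were named after their values were seen.

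Middle-aged replicate 3 stood at least 0.4 above the mean of the other 2 middle-aged libraries in 7 of the 115 genes (6.09%), against 6.44% of all genes with a mean of at least 7. The 7 were Fth1 (0.92), H2-D1 (0.87), Gm13391 (0.71), Gm6977 (0.54), Xylt1 (0.51), Rpl13-ps6 (0.49) and Slc3a2 (0.41). For Fth1 this excess was above that of 99.8% of all genes and for H2-D1 above 99.7%. Without middle-aged replicate 3 the second step of Fth1 was 1.64 and that of H2-D1 1.82, larger than with it, but their first steps were then -0.34 and -0.22, beyond the limit of 0.15. The share of this library's preparation or reads in these values was not tested.

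The 4 members on the list of lysosomal enzymes and the proton pump were Ctsb, Ctsz, Ctsd and Gusb. Ctsb, encoding cathepsin B, was at 19.25, 19.42 and 19.39 in young, 19.62, 19.42 and 19.29 in middle-aged and 19.91, 19.83 and 19.71 in old libraries, 1.29-fold higher in old than in middle-aged means. Old replicate 3 of Ctsb lay 0.09 above middle-aged replicate 1. Ctsz, encoding the carboxypeptidase cathepsin X, was at 17.22, 17.37 and 17.27, then 17.47, 17.31 and 17.27, then 17.76, 17.62 and 17.75, a 1.28-fold step. Ctsd was at 17.12, 17.16 and 17.05, then 17.32, 17.09 and 17.09, then 17.62, 17.40 and 17.41, a 1.24-fold step. The CLEAR core in its stretch printed above lies in a palindrome, so the same site matches on both strands. In all 3 cathepsin genes middle-aged replicate 1 was the highest of its group and the old libraries lay above it. Gusb, encoding the lysosomal enzyme beta-glucuronidase, was at 13.78, 13.88 and 13.83, then 13.83, 13.63 and 13.76, then 14.15, 14.11 and 14.18. Its old SD of 0.034 was among the 4 smallest of the 115, with those of Sc5d, Pcyt1a and Gltp (0.027, 0.029 and 0.033).

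The list held 54 genes with a mean of at least 7, whose means ran from 9.21 to 19.54. Their second steps ran from -0.21 to 0.52 with a median of 0.15, and their first steps had a median of 0.05. Of the 50 that are no members, 7 were called higher in old against young libraries, against 1.7% of all genes, and 0 in the other 2 comparisons (limma moderated test, adjusted p under 0.05). Further genes that act in or for lysosomes and phagosomes are not on that list and were grouped after their values were seen. Dpp7 was at 12.26, 12.34 and 12.18, then 12.54, 12.34 and 12.32, then 12.85, 12.74 and 12.66. Pld3, encoding an exonuclease of the lysosome, had the largest step of these, 0.56, from 15.69, 15.48 and 15.38 in middle-aged to 16.24, 16.03 and 15.96 in old libraries. Man2b2, a lysosomal mannosidase gene, was 0.49 higher, and Gnptab, whose enzyme tags proteins for the lysosome, 0.43. Bloc1s6, of a complex in the making of lysosome-related organelles, and Vps4b, of the membrane-scission machinery of endosomes, were 0.45 and 0.36 higher. Hvcn1, the phagosomal proton channel gene, was 0.43 higher.

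Fth1, Igf1, Ctsb, Ctsz and Ctsd are also on the disease-associated microglia list, a signature known from microglia near plaques, and were 5 of its 37 genes. The list had median steps of 0.41 to 15 months and 0.37 after it. Of its 32 genes that are no members, 8 were called higher in middle-aged against young libraries (0.114% of all genes), 9 in old against middle-aged (0.16%) and 19 in old against young (1.7%), with 0 lower (limma moderated test, adjusted p under 0.05). The 5 named genes had first steps from -0.03 to 0.09, held near 0 by the choice. Of 26 homeostatic microglia genes with a mean of at least 7, 0 were members. As 1.08% of all such genes were members, this absence says little about the list.

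Genes of the growth factor and mTOR pathway in the set were Igf1, Prr5l, Rraga and Eif4ebp1, 4 of 56. Igf1, the ligand, lies on chromosome 10 at 87858265 to 87937042 and was at 11.21, 11.38 and 11.50 in young, 11.48, 11.34 and 11.26 in middle-aged and 12.41, 12.31 and 11.98 in old libraries. The young and middle-aged libraries covered nearly the same range, old replicate 3 was the lowest of the old ones, and the step was 1.83-fold. Prr5l, encoding a protein that binds mTOR complex 2, was at 9.74, 9.67 and 9.76, then 9.97, 9.55 and 9.94, then 10.38, 10.71 and 10.55, a 1.66-fold step. Rraga, encoding the small GTPase RagA that brings mTOR complex 1 to the lysosome, was at 9.49, 9.71 and 9.72, then 9.47, 9.46 and 9.69, then 10.03, 10.15 and 10.04. Eif4ebp1, whose protein 4E-BP1 holds back translation until mTOR complex 1 phosphorylates it, was at 9.27, 9.36 and 9.17, then 9.15, 9.25 and 9.45, then 9.77, 9.66 and 9.99. In each of these 4 genes the old libraries lay at least 0.21 above the others.

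The 56 pathway genes with a mean of at least 7 had median steps of -0.03 and -0.003. Of the 56 tested that are no members, 1 was called lower in old against young libraries and 0 were called in the other comparisons or higher (limma moderated test, adjusted p under 0.05). Over all 14955 genes tested, 299 were called in either direction in old against young libraries. In old against middle-aged it was 26 and in middle-aged against young 17, so the count of 1 says little about the pathway. The values are transcript levels, and neither phosphorylation nor translation was measured. Slc3a2, the heavy chain of amino acid transporters and a target of the stress factor ATF4, was 0.41 higher in old than in middle-aged libraries, and 0.54 without middle-aged replicate 3. Eif2ak1, encoding a kinase that halts translation under stress, was 0.39 higher. No translation factor and no cytosolic ribosomal protein gene was a member, of 50 and 76 with a mean of at least 7, where 1.08% of all such genes were members and 23 of the 40 biology lists had none.

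Adhesion genes included the integrin subunits Itga5, Itga4 and Itgb7, 3 of 29 on the list. Itga5, the fibronectin receptor alpha chain, was at 11.12, 11.24 and 11.27 in young, 11.15, 11.26 and 11.14 in middle-aged and 11.85, 11.69 and 12.08 in old libraries. The 6 younger libraries lay within 0.15 of each other and the old mean was 1.61-fold the middle-aged one. Itga4, a subunit also used as a monocyte marker, was at 10.44, 10.65 and 10.55, then 10.69, 10.90 and 10.29, then 11.02, 11.22 and 11.07. Its step was 0.48, and 0.31 without middle-aged replicate 3, the lowest library. Itgb7, a partner of alpha 4 on lymphocytes, was 0.33 higher. Fblim1, which links adhesion sites to actin filaments, was at 11.74, 11.25 and 11.66 in middle-aged and 12.19, 11.92 and 12.28 in old libraries. L1cam, a neural adhesion molecule gene, was at 7.95, 8.01 and 8.15 and then 8.40, 8.21 and 9.16, and its step of 0.56 was 0.27 without old replicate 3. Coro1c, an actin-binding protein gene, was 0.35 higher, with old libraries at 12.64, 12.71 and 12.70.

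The set also held genes of sugar chain synthesis, a grouping made after their values were seen. Xylt1, whose enzyme starts glycosaminoglycan chains on proteoglycans, was at 10.35, 10.14 and 10.01 in young, 10.04, 10.22 and 10.64 in middle-aged and 11.01, 10.80 and 11.11 in old libraries. Its step was 1.59-fold, with middle-aged replicate 3 nearest the old ones. B4galt7, which adds the next sugar of the linker, was 0.34 higher, from 9.23, 9.43 and 9.17 to 9.53, 9.52 and 9.80. Extl3, of heparan sulfate synthesis, was 0.40 higher and Glce, the epimerase of heparan sulfate, 0.51. Amdhd2 and Renbp, of amino sugar metabolism, were 0.42 and 0.33 higher, and Amdhd2, with old libraries at 10.80, 10.60 and 11.44, had 0.17 without old replicate 3.

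Aplp2, the amyloid precursor-like protein 2 gene, lies on chromosome 9 at 31149557 to 31211815 and was at 12.32, 12.41 and 12.36 in young, 12.46, 12.40 and 12.57 in middle-aged and 13.49, 13.25 and 13.32 in old libraries. The old mean was 1.84-fold the middle-aged one, and the old libraries lay 0.68 above all others. Itm2c, encoding a membrane protein that binds the amyloid precursor protein, was 0.36 higher and Lrpap1, a chaperone of the LDL receptor family, 0.43. P2rx4, the ATP-gated channel known from activated microglia, was at 12.64, 12.62 and 12.56, then 12.68, 12.58 and 12.73, then 13.18, 13.14 and 13.29, a 1.45-fold step. Its 3 old libraries lay 0.41 above the highest younger one.

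In lipid metabolism, Sc5d and Tm7sf2 of sterol synthesis were 2 of 21 cholesterol genes. Sc5d was at 11.18, 10.87 and 10.85 in middle-aged and 11.40, 11.36 and 11.35 in old libraries. Tm7sf2 was at 7.27, 7.36 and 7.42 and then 7.50, 7.60 and 8.01, and its step of 0.36 was 0.20 without old replicate 3. Pcyt1a, of phosphatidylcholine synthesis, and Gltp, a glycolipid transfer protein gene, were 0.36 and 0.43 higher. Pitpnm1, a phosphatidylinositol transfer protein gene, was 0.46 higher, and 0.30 without old replicate 3. In energy metabolism, Ndufa10 of respiratory complex I, Mrpl54 of the mitochondrial ribosome and Pfkl of glycolysis were single members of lists of 36, 70 and 21 genes, with steps of 0.36, 0.43 and 0.41.

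Of 10 T and NK cell markers with a mean of at least 7, 3 were members, where 1.08% of all such genes were, and no test was made of this share. Ccl5, a chemokine, was at 10.77, 10.59 and 10.49 in young, 10.77, 10.89 and 10.59 in middle-aged and 10.96, 11.34 and 11.47 in old libraries. Gzma, the protease granzyme A of killer cells, was at 7.38, 7.48 and 7.37, then 7.31, 7.47 and 7.57, then 7.77, 7.71 and 8.39. Its step of 0.51 was 0.29 without old replicate 3. Cd2, an adhesion receptor of these cells, was at 6.89, 6.83 and 6.92, then 7.05, 6.85 and 6.83, then 7.07, 7.30 and 7.45. In Cd2 the lowest old library exceeded the highest middle-aged one by 0.03. Its young and middle-aged means were 6.88 and 6.91, so it is among the 3 and the 10 only through its old libraries.

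The wider marker list was mixed. Of 24 T and NK cell markers in the table, 9 had all old libraries above all younger ones. Of these, 3 were the members among the 10 markers with a mean of at least 7, where the share over all genes was 4.51%. The members have this pattern by the choice, so their share is a description. The other 6 were among the 14 below that mean, where 1.72% of genes with a value of at least 3.32 in some library had it. The second step was above 0 in 18 of the 24, below 0 in 6 and at least 0.3 in 8. The 3 members are among the 18 and the 8 by the choice. The shares over all genes were not counted, and the median second step over genes with a mean of at least 7 was -0.003. Cd8b1, a subunit of the T cell co-receptor CD8, was at 6.26, 6.22 and 6.24 in young, 6.22, 6.20 and 6.11 in middle-aged and 6.45, 6.57 and 6.57 in old libraries. Cd3g, of the T cell receptor complex, was at 6.45 to 6.55 in the 6 younger libraries and at 6.67, 6.73 and 6.90 in old ones. Cd4 had steps of -0.57 and -0.04, Cd28 of -0.36 and -0.04, Il7r of -0.08 and -0.04 and Klrb1c of 0.15 and -0.09, and Eomes and Tbx21 were below 3.32 in all libraries. The summed linear level of the 24 ran from 6384 to 6589 in young, 5905 to 7019 in middle-aged and 6741 to 8538 in old libraries. This sum includes the 3 members, which were chosen as high in old libraries, so it is also shaped by the choice. Of the 19 markers tested that are no members, 2 were called higher in old against young libraries, against 1.7% of all genes, and 0 in the other 2 comparisons (limma moderated test, adjusted p under 0.05). The part of lymphocytes in the steps of Ccl5, Gzma, Cd2, Itga4, Itgb7, Il2ra and Il12rb2 was not tested. Ighg2b, an immunoglobulin heavy chain constant gene, was at 7.71, 7.85 and 7.85 in middle-aged and 8.68, 8.16 and 7.94 in old libraries, and its step of 0.45 was 0.24 without old replicate 1. Summed B cell markers ran from 86937 to 96451 in young, 78750 to 85394 in middle-aged and 82796 to 98484 in old libraries, which overlapped.

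Over the set, the mean deviation of the 115 genes from their own means was -0.18, -0.10 and -0.18 in the young libraries, -0.14, -0.18 and -0.14 in the middle-aged ones and 0.27, 0.27 and 0.38 in the old ones. The order of the ages is set by the choice. Old replicate 3 was the highest old library in 65 of the 115 genes (56.5%, against 40.9% of all genes) and the lowest in 25 (21.7%, against 40.5%). It stood at least 0.4 above the mean of the other 2 in 13 genes (11.3%, against 9.03%) and at least 0.3 below it in 7 (6.09%, against 18.9%). The requirement that every old library be high removes genes in which it is low, so these shares are also shaped by the choice and are a description.

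**Figure D3:**
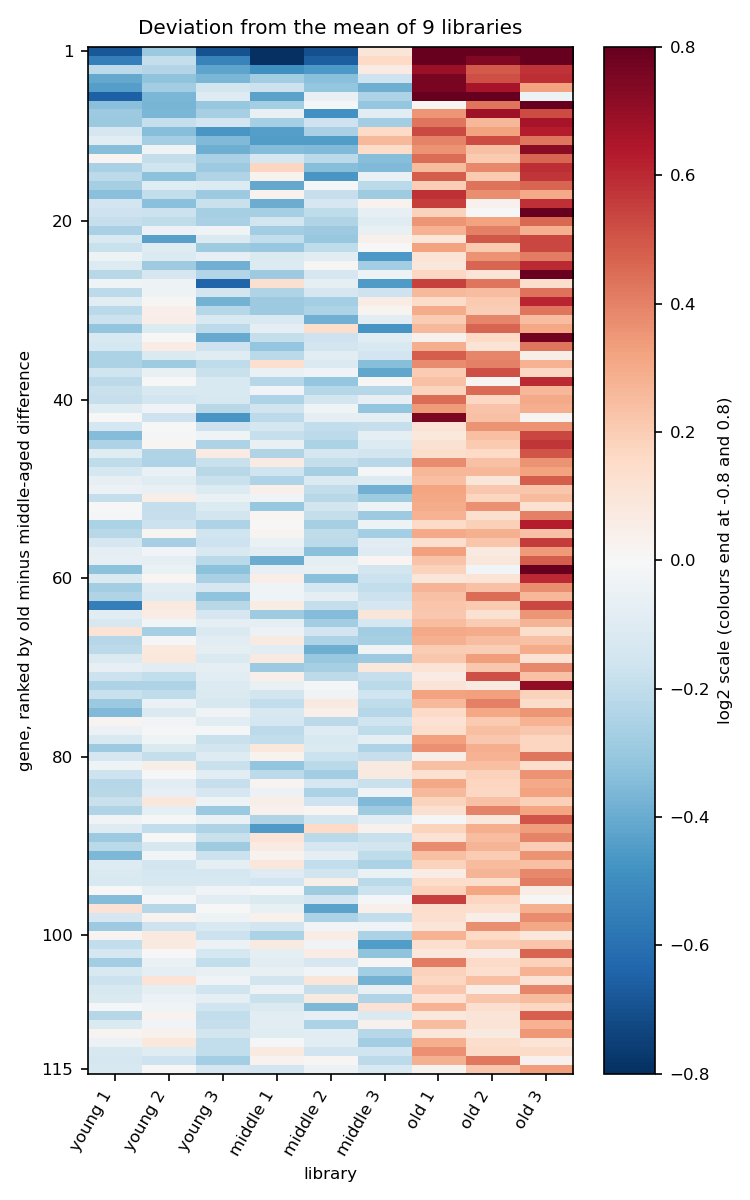
Deviation of each of the 115 genes (rows, ranked by the old minus middle-aged difference, largest at the top) from its mean over 9 libraries, on the log2 scale, with colours ending at -0.8 and 0.8. The 3 old libraries are red in nearly every row, old replicate 3 most deeply, and middle-aged replicate 3 is pale rather than blue in the first rows.

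Leaving out 1 library moved the second step by over 1.5 times in 20 of the 115 genes, in 12 of them by leaving out old replicate 3. Those 12 were Amdhd2, Scimp, L1cam, Txnl1, Tm7sf2, Gzma, Saa3, Sec24d, Anln, Pitpnm1, Timeless and 1600012H06Rik. The step of Timeless, a replication fork gene, was 0.32, and 0.19 without that library. Sec24d, of secretory vesicle coats, had a step of 0.42, and 0.25 without it, and Anln, an actin-binding gene of cell division, 0.42 and 0.27. Saa3, an acute-phase protein gene, was at 6.80, 7.06 and 6.76 in middle-aged and 7.09, 7.50 and 8.23 in old libraries, and its step of 0.73 was 0.42 without that library. Txnl1, a thioredoxin-like gene, was at 10.02, 10.14 and 10.75 in old libraries, and its step of 0.47 was 0.24 without it. Cnbd2, a cyclic nucleotide binding domain gene, was the opposite case, at 12.04, 12.29 and 11.18 in old libraries against 10.79, 11.16 and 10.97 in middle-aged ones. Its old SD of 0.58 was the largest of the 115, and in old replicate 3 it lay 0.02 above the highest younger library. Igf1, Cyp4f16 and Ighg2b were also low in old replicate 3, by 0.39, 0.40 and 0.48 against the mean of the other 2.

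**Figure D4:**
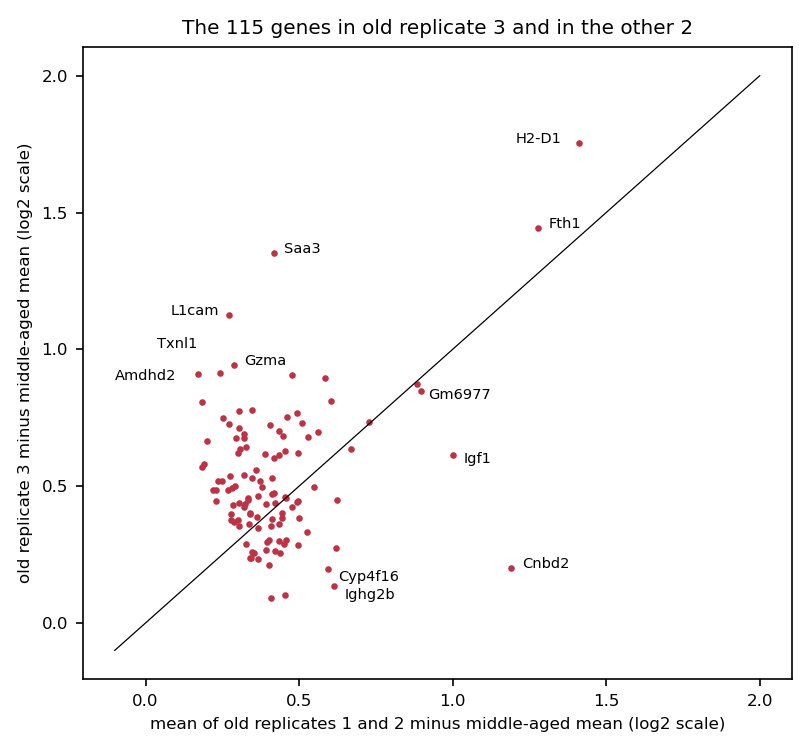
For each of the 115 genes, the mean of old replicates 1 and 2 minus the middle-aged mean (horizontal) and old replicate 3 minus the middle-aged mean (vertical), on the log2 scale, with the line of equal values. Saa3, L1cam, Amdhd2, Txnl1 and Gzma lie above the line and Cnbd2, Igf1 and Ighg2b below it, while H2-D1 and Fth1 are high on both axes.

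To read the pattern in libraries that did not choose the genes, the same limits were applied to the 6 libraries of 2 replicate numbers and the differences were read in the 3 libraries left out. Replicate numbers only name the libraries and pair nothing. The choice without replicates 1, 2 and 3 gave 291, 240 and 142 genes, with median second steps of 0.40, 0.39 and 0.38 in the libraries that chose them. In the libraries left out the median old minus middle-aged difference was 0.13, 0.18 and 0.24, against 0.005, 0.003 and -0.003 over all genes. It was above 0 in 69.8%, 72.9% and 70.4% of the chosen genes, against 51.0%, 50.5% and 49.7% of all genes. It was at least 0.3 in 23.7%, 36.7% and 45.8%, against 7.16%, 12.2% and 17.9%. Thus the second step was smaller outside the libraries used for the choice, and its direction was seen more often than over all genes in each of the 3 readings.

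The first step was read in the same libraries. In those left out, 34.4%, 42.5% and 43.0% of chosen genes had a first step within 0.15, against 43.0%, 46.9% and 48.8% of all genes. The flat first step was thus less frequent among chosen genes than over all genes in each of the 3 readings. Both limits were met by 25 of 291, 26 of 240 and 29 of 142 chosen genes (8.59%, 10.8% and 20.4%). These limits were a second step of at least 0.3 and a first step within 0.15. Over all genes the shares were 1.81%, 3.01% and 7.73%. The median first step of the chosen genes in those libraries was 0.13, -0.007 and 0.06. Each reading rests on 1 library per age, which has more spread than a mean of 2 or 3.

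**Figure D5:**
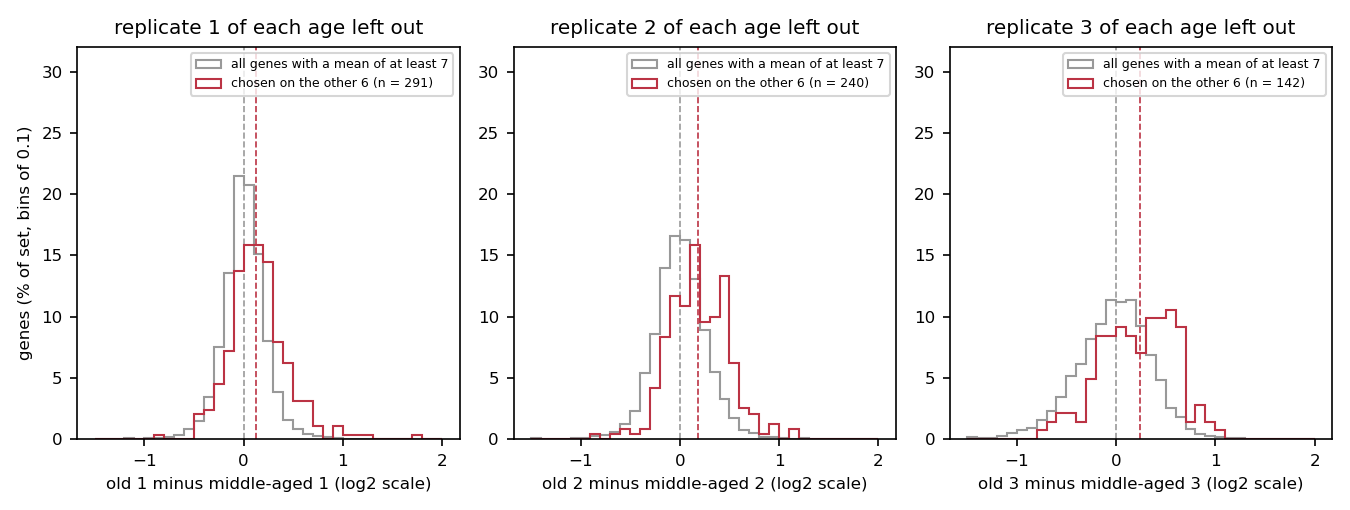
Distribution of the old minus middle-aged difference (log2 scale, bins of 0.1, values beyond the ends put in the last bins) in the 3 libraries of 1 replicate number, for genes chosen on the other 6 libraries (red) and for all genes with a mean of at least 7 (grey), with dashed lines at the medians. The red medians lie at 0.13, 0.18 and 0.24 and the grey ones near 0.

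Leaving out 1 library at a time gave sets of 117 to 218 genes. Of the 115 genes, 33 stayed in all 9 sets, 27 in 8 of them and 7 in 5 or fewer. Those in all 9 included Aplp2, Igf1, Itga5, P2rx4, Nlrc3, Nlrc5, Stat2, Eif4ebp1, Ctsz, Gusb, Slc11a1, Il2ra and the RNA helicase gene Mov10. H2-D1 stayed in 5 and Fth1 in 7 of the 9. Without middle-aged replicate 3 the set shared 70 of the 115, the fewest, and without old replicate 2 it shared 108, the most.

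Tests over all genes were used as background and nothing about the 115 is read from them, since the choice used the same contrasts. In old against middle-aged libraries 0.16% of 14955 genes were called higher by limma, and 6 of the 115 were, namely H2-D1, Fth1, Aplp2, Igf1, Itga5 and P2rx4. In old against young libraries 1.7% were called higher, and 24 of the 115. In middle-aged against young 0.114% were called higher, and 0 of the 115, with 0 lower. The authors' deposited table called 0.859% of genes higher in old against middle-aged and 34 of the 115, 4.72% in old against young and 83 of the 115, and 3.26% in middle-aged against young and 0 of the 115.

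In the authors' deposited table all 115 genes had a positive log2 fold change between middle-aged and old, from 0.22 to 1.04 with a median of 0.46, and 113 were at least 0.3. Between young and middle-aged it ran from -0.30 to 0.25 in the authors' deposited table, with 94 of the 115 within 0.15. For H2-D1 the authors' deposited table gave 1.04 and 0.10 for these steps, for Fth1 0.89 and 0.03, for Aplp2 1.03 and 0.14 and for Igf1 0.95 and -0.01. For Saa3 the authors' deposited table gave 0.40 and 0.24. The second steps of H2-D1, Fth1 and Saa3 were thus smaller there than the 1.52, 1.33 and 0.73 read from the per-library values. Those of Aplp2 and Igf1 were larger there than the 0.88 and 0.87 of the per-library values. The median of the 115 was also larger there than the 0.42 of the per-library values. The comparisons share libraries, so their values are given side by side and no test was made between them.

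Of the 115 genes, 93 had a promoter window in the RefSeq table, with 125 windows, and 8142 of the genes with a mean of at least 7 had one. A gene was counted for a motif when any of its windows held it on either strand, and the 115 had 1.34 windows per gene against 1.28 over all. The core of the interferon-stimulated response element (GAAANNGAA) was in 16 of the 93 (17.2%), against 9.36% of all genes, and among them were Stat2, Oas1g, Saa3, Gzma, Pld3, Slamf8 and Dpp7. The related consensus of MHC class I genes (GAANNGAAA), which can overlap it, was in 5 (5.38%, against 7.69%), among them H2-D1, Prr5l, Pitpnm1 and Stat2. An NF-kB motif (GGGNNTTCC) was in 12 (12.9%, against 8.76%), among them H2-D1, Prr5l, Enpp1, Il12rb2, Il2ra, Ctsz and Tnip1. The CLEAR core (TCACGTG), which contains the E-box CACGTG, was in 10 (10.8%, against 7.37%), among them Ctsd, Dpp7, Nxpe4, Atf6b, Fam50a, Cdk18 and Sc5d. The heat shock element (GAANNTTC) was in 9 (9.68%, against 7.31%), among them Saa3, Synj2, Sbno2 and Pfkl. A PU.1 site (GAGGAAGT), for the main factor of macrophage genes, was in 4 (4.3%, against 4.19%). Such matches describe letters and not binding, and 12 motifs were searched.

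The transcripts of the set were richer in G and C than others. The longest transcript of each gene had a median GC content of 52.1%, against 48.9% over all genes with a mean of at least 7, and a median length of 3101 bases against 3363. In 4 groups of equal size by GC content, from low to high, 16, 21, 33 and 45 of the 115 genes fell in each, 0.604%, 0.793%, 1.25% and 1.7% of the genes there. The second step over all genes moved with GC in the same order, with medians of -0.05, -0.02, 0.02 and 0.04. The first step had medians of 0.05, -0.009, -0.04 and -0.03. The part of GC content in the second step of the 115 genes was not tested.

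Some of the 115 genes lie near each other. Timeless and Stat2 are 17618 bases apart on chromosome 10, L1cam and Renbp 26016 bases apart on chromosome X, and Hvcn1 and P2rx4 465247 bases apart on chromosome 5. Daxx, Atf6b and H2-D1 follow each other on chromosome 17 with 731556 and 607656 bases between them. Chromosomes 5, 10 and 17 held 13, 11 and 10 of the genes, 1.89%, 2.23% and 1.95% of their genes with a mean of at least 7, against 1.08% over all chromosomes. Among chromosomes with a member these 3 had the highest shares, and chromosomes 6 and 4 the lowest, 0.189% and 0.464%. Neither these shares nor the nearness of the pairs was tested.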

How the data were processed

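RNA was sequenced from sorted microglia of 9 libraries, 3 per age, each a pool of 3 mice, so replicates are pools of animals. Per the labels' protocols, libraries were made with the SMARTer Ultra Low RNA kit. CASAVA, cutadapt 1.13, STAR 2.5.3 and DESeq2 1.16.1 and the mm10 build stand in the submitters' processing notes; what each did, and the counter, annotation and transformation, are not stated there. The deposited table, named for normalized counts, holds log2 values and was used as deposited, without the planned log2(value + 1), which was kept for linear values. Per the file headers, the authors' 3 comparison tables give a base mean (a mean signal per gene), a log2 fold change, a test score, and a p-value with its adjusted p-value; positive folds mean higher at the later age, and an adjusted p under 0.05 was taken as a call.

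The members and gene lists were chosen with earlier results of these data known. Motif letters, printed promoters, the 90% identity limit and groups beyond the 53 lists (40 on biology, 13 of markers) were chosen after values or sequences were seen. The 115 genes were found by the limits given in the report, from all 9 libraries. For background, limma 3.58.1 in R 4.3.3 was fitted to 14955 genes with values of at least 3.32 in at least 3 libraries, with 3 ages as groups, a variance trend and Benjamini-Hochberg adjustment at 0.05, and was tested on simulated data. With no counts, the depth and its precision are unknown, and no count test was run. Coordinates are from GENCODE M21 (GRCm38, the same assembly as mm10), which matched all 115 genes. Promoters are from RefSeq (GRCm38.p6) and covered 93; the others were not analysed here. Transcripts were compared with blastn 2.17.0. Named genes were the 12 with the largest second step (unnamed models left out), up to 4 per list and motif, the genes nearest each limit, those of largest and smallest old SD, and those where old replicate 3 was highest or lowest; other genes named were chosen after their values were seen. Alternatives covered the limits, scaling, filters, fits and each library left out. Python 3.11.15, pandas 2.3.3 and matplotlib 3.10.9 were used.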

Additional observations from a re-analysis of the deposited data

How the results depend on the processing

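The 115 genes became 67 with a second step of at least 0.4, 206 with at least 0.2 and 225 with overlap allowed, and 117 to 218 when each library was left out in turn. Other limits on the mean (104 and 128) and the first step (78 and 159), centring of libraries (111, of which 104 are among the 115) and the authors' folds in place of the table's values (132, of which 92 are) stayed within 1.5 times. Over all genes, limma called 26 genes in either direction in old against middle-aged libraries, 299 in old against young and 17 in middle-aged against young. Without the filter on low values the counts were 9, 170 and 10. With a mean of at least 7 they were 48 in old against middle-aged and 37 in middle-aged against young, and without the variance trend old against middle-aged had 3. With only the 2 ages of a comparison fitted they were 0 in old against middle-aged, where 1007 genes had an unadjusted p under 0.05 by limma, and 153 in old against young. The authors' deposited table called 199, 1230 and 938. Leaving out each library gave 3 to 23, 84 to 322 and 4 to 49. With the replicate number as a block the counts were 14, 185 and 11, but the numbers do not pair the libraries: same-numbered libraries correlated between -0.242 and 0.234 in their deviations from the group means. Of 67 named genes under 8 alternatives each (536 values), 0 changed direction. The named genes had every old library above every middle-aged one, so leaving out 1 library could not change a direction. Of the values, 11 moved by over 1.5 times, as given beside the genes. The values of Saa3, Gzma, L1cam, Amdhd2, Txnl1, Tm7sf2, Pitpnm1, Pold4 and Mrto4 without old replicate 3 were among these 11. Depth is unknown, so counting error could not be set against the limits.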
